A study of Homo sapiens with 6 samples.

Results

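The genes of the human proteasome were followed in MOLM-13 cells, a human acute myeloid leukaemia cell line, after a short exposure to C646, an inhibitor of the acetyltransferases CBP and p300. The members were all protein-coding genes with a symbol of the PSMA, PSMB, PSMC, PSMD, PSME, PSMF or PSMG series, together with POMP, and they numbered 49 of the 25420 genes counted. They comprised 8 genes of the 20S alpha ring, 7 of the 20S beta ring, 4 beta subunits of the immunoproteasome type, 6 ATPases and 11 non-ATPase subunits of the 19S cap, 5 activators or inhibitors and 8 assembly factors. One group of 3 libraries came from cells given 10 µM C646 for 2 h and the other group of 3 from cells given the solvent DMSO for the same time. Cells of both groups carried the uridine analogue 4sU at 100 µM during the last 1 h, and the labels name no further agent. All 6 libraries are of 1 cell line, and the labels call them replicates without saying whether they were grown as separate cultures, so that p-values measure the spread between these libraries, which may be technical.

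The 26S proteasome degrades proteins that carry ubiquitin. Its 20S core is a barrel of outer alpha rings and inner beta rings with the catalytic sites inside, and its 19S cap recognises, unfolds and feeds the substrate with a ring of ATPases and a lid of non-ATPase subunits. Dedicated chaperones assemble the alpha ring, the beta ring and the ATPase ring, and interferon-induced beta subunits can replace the constitutive catalytic ones.

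In SLAM-seq, 4sU built into RNA during labelling is read as cytosine after alkylation, so reads with T>C conversions mark RNA made in the labelling hour (new RNA), while all reads measure the whole pool of mRNA. T>C reads are not the exact amount of new RNA, since reads with 1 conversion are counted, new reads without a conversion are missed and no unlabelled library was used here. The libraries held 7252597 to 10225448 reads on 3′ UTRs, of which 8.74% to 8.86% were T>C reads in DMSO and 6.34% to 6.71% in C646. All 7 myeloid markers examined were counted at 287 reads or more in every library, among them CD33 with 1009 to 1762 reads, whereas the T cell, B cell, epithelial and erythroid markers stayed between 0 and 22 reads. Levels are given below as CPM, which relates the reads or T>C reads of a gene to the TMM-scaled total of all reads of its library. To be called, a gene needed an adjusted p of 0.01 or less and a log2 fold change of 1 or more in either direction. The test was the quasi-likelihood test of edgeR, adjusted over all genes tested after Benjamini and Hochberg. Scaled in this way, the median log2 fold change in T>C reads over the 7722 genes tested was -0.83, and T>C changes are to be read against that shift. In bulk libraries, less new RNA per cell and fewer labelled cells cannot be told apart.

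Most proteasome genes had a T>C change above that of the typical gene. Of the 49 genes, 41 could be tested in T>C reads, and 7 of them (17.1%) were called lower, beside 33.0% of all genes tested. PSMG3, PSMG4, PSMD8, PSMC3, PSMC5, PSMA6 and PSMB2 made up the called group. A single member, PSMD10, was called higher, beside 2.97% of all genes. The median over the 41 was -0.49 in T>C reads, and 32 of the 41 lay above the all-gene median of -0.83. When T>C reads were instead scaled on themselves (TMM), this median became 0.34 against 0.01 for all genes tested, with 1 member called lower (PSMG3; 7.80% of all genes) and 4 called higher (PSMA5, PSMB1, PSMD10 and PSMG1; 9.14% of all genes). The direction of the group median in T>C reads thus depended on the scaling, which shifts all genes by nearly the same amount and so leaves their order as it was. Values of the C646 libraries lay entirely below those of DMSO in 19 of the 41 genes and entirely above in 2, beside 55.8% and 6.46% of all genes tested. With no demand on the fold, 9 members fell and 2 rose in T>C reads, beside 38.0% and 3.83% of all genes, and 35 of the 41 (85.4%) had a negative change, beside 82.9%. In DMSO, T>C reads were a median 6.85% of the reads of a member, against 13.3% over all genes tested. Some T>C reads may not come from 4sU, and their part in the smaller change of the members was not tested.

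**Figure D1:**
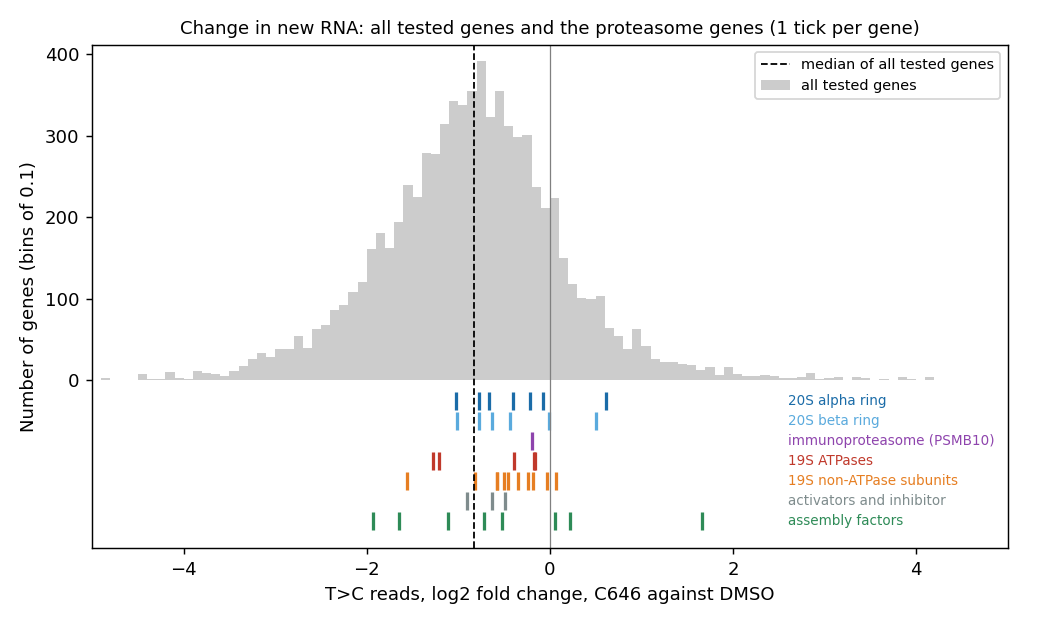
Log2 fold change in T>C reads (C646 against DMSO, scaled by all reads) on the horizontal axis, with the number of tested genes per bin of 0.1 as grey bars (27 genes lie beyond the axis), 1 coloured tick per proteasome gene by role, and a dashed line at the all-gene median. The 41 proteasome genes centre on -0.49 and all 7722 tested genes on -0.83; with T>C reads scaled on themselves these medians are 0.34 and 0.01.

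In the whole mRNA pool few of these genes were called after 2 h. Among the 42 genes tested in all reads, 0 were called lower and 2 were called higher, PSMA5 and PSMD9, beside 1.88% and 5.89% of the 10851 genes tested. DESeq2 gave the same numbers, and an unadjusted p below 0.05 was reached by 17 of the 42 in edgeR, beside 42.6% of all genes. With no demand on the fold, 3 genes fell (PSMC3, PSMC5 and PSMD8) and 3 rose (PSMA5, PSMD9 and PSMD10), beside 6.28% and 9.81% of all genes. Scaled by the total of all filtered reads, the 3 that fell did not pass (adjusted p = 0.0101, 0.0402 and 0.0286, edgeR). They did not pass without C646 replicate 2 either (adjusted p = 0.0167, 0.0284 and 0.0190, edgeR), and nor did PSMD10 (adjusted p = 0.0118, edgeR). The median log2 fold change in all reads was -0.01 for the members, and 22 of the 42 had a negative change, beside 50.4% of all genes. Summed over all 49 genes, the reads came to 8606 ± 79.4 CPM in DMSO and 8351 ± 84.3 CPM in C646 (SD, n = 3 each), and the T>C reads to 543 ± 13.6 and 440 ± 40.0 CPM. Proteasome genes took 0.622% ± 0.0104 of all T>C reads of a library in DMSO and 0.675% ± 0.0364 in C646. Without PSMB1, left out after the values were seen, these shares were 0.554% ± 0.0230 and 0.546% ± 0.0276, so the higher value in C646 rested on that gene.

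**Figure D2:**
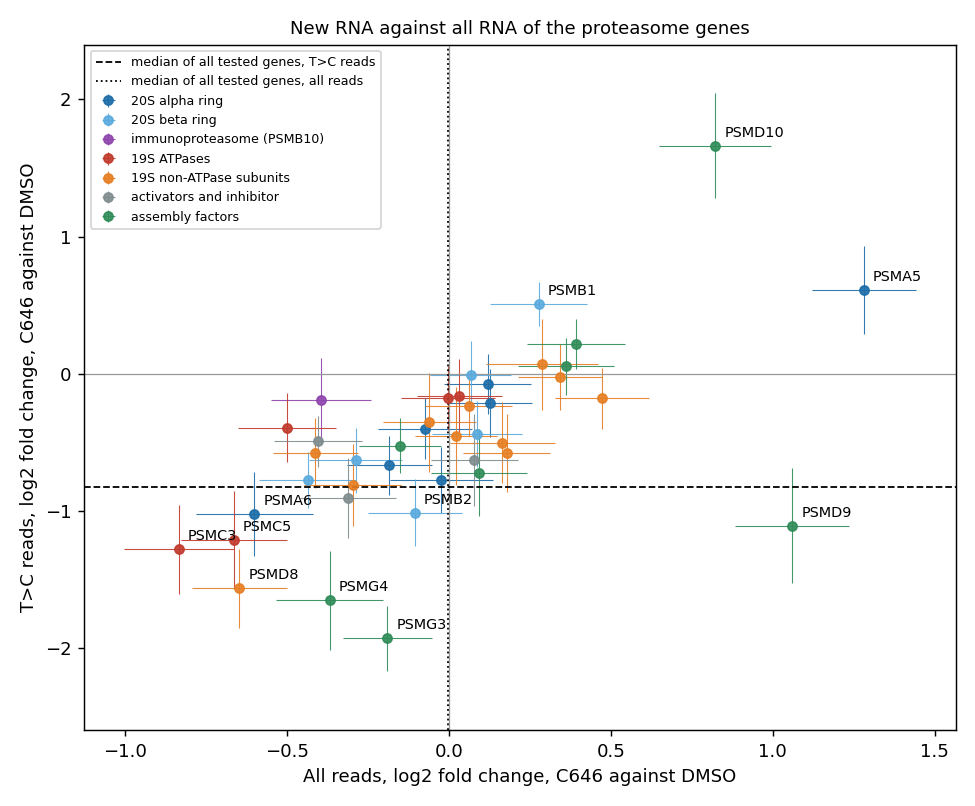
Log2 fold change in T>C reads (vertical) against that in all reads (horizontal) for each tested proteasome gene, C646 against DMSO, coloured by role, with bars of 1 standard error from edgeR and lines at the medians of all tested genes. PSMG3 (-1.93 in T>C reads) and PSMD10 (1.66) stand at the lower and upper ends, PSMA5 and PSMD9 lie to the right with 1.28 and 1.06 in all reads, and the vertical scale shifts upward if T>C reads are scaled on themselves.

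Because no scaling between libraries enters it, the ratio of T>C reads to other reads within a gene (the T>C odds) was tested as well. Here 3 of 41 members were called lower, PSMD9, PSMG3 and PSMG4 (7.32%, beside 38.3% of all genes), and 0 were called higher, beside 0.790% of all genes. At an unadjusted p below 0.05 stood 18 of the 41, beside 66.7% of all genes. All 3 genes called are assembly factors, of which they make up 37.5%, near the share over all genes. With no demand on the fold, 8 members fell and 0 rose in T>C odds, beside 44.8% and 1.14% of all genes, and 37 of the 41 had a negative change, beside 92.0%. The T>C shares of the C646 libraries lay entirely below those of DMSO in 15 members and entirely above in 2, beside 64.5% and 2.18% of all genes. The median log2 change of the odds was -0.39 for the members and -1.004 for all 7722 genes.

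Proteasome genes had a smaller proportion of T>C reads than most tested genes already in DMSO. Their T>C share, the T>C reads as a percentage of the reads of the gene, had a median of 6.85% in DMSO and 4.42% in C646, against 13.3% and 7.37% over all genes tested. Per covered T, which allows for the T content of each 3′ UTR, conversions had a median of 0.461% in DMSO, and 38 of the 41 genes lay below the median of 0.913% over all genes tested. The 3 above it, singled out after their values were seen, were PSMG1 at 1.53%, PSMD12 at 1.23% and PSMG3 at 0.966%. At the other end stood PSMD4, a ubiquitin receptor of the cap, with 0.199%. The assembly factors had a median T>C share of 11.8% in DMSO and 6.06% in C646. Lower DMSO medians were found in the 20S alpha ring (7.31%), the 20S beta ring (4.67%), the ATPases (6.85%), the non-ATPase cap subunits (6.13%) and the activators (7.54%), whose C646 medians were 4.42%, 3.76%, 6.52%, 4.51% and 4.56%. PSMB10, the one immunoproteasome gene tested, had a mean share of 3.50% in DMSO and 4.16% in C646.

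**Figure D3:**
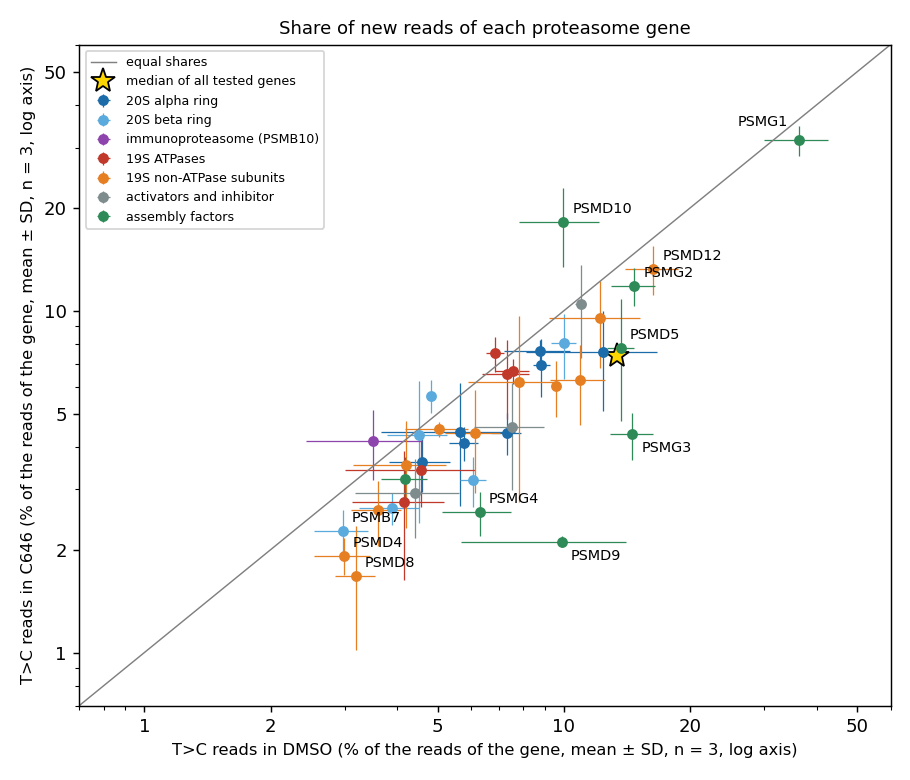
Mean T>C share of each tested proteasome gene (T>C reads as a percentage of its reads, log axes) in C646 against DMSO, n = 3 libraries each, coloured by role, with bars of 1 SD, a diagonal of equal shares and a star at the medians of all tested genes (13.3% and 7.37%). Points under the diagonal have a lower share in C646; PSMD10, PSMB1, PSMB10 and PSMC1 are above it, and PSMD9 and PSMG3 lie farthest below.

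For promoters, short sequence windows are shown because the factor NFE2L1, which drives proteasome genes when the complex is impaired, binds antioxidant response elements, and because its own gene is among those reported below. RefSeq promoter windows (GRCh38.p14, 250 bases before to 50 after the start) were matched by Entrez identifier for 43 of the 49 genes. The core TGACNNNGC, searched on both strands, was present in 13 of the 43 (30.2%) and in 14.3% of all 15843 protein-coding promoters of the same length. CCAAT boxes (CCAAT, both strands) were found in 19 of 43 (44.2%) against 36.4%, and the nuclear respiratory factor core (GCGCA and GCGC spaced by 1 base) in 5 of 43 (11.6%) against 8.58%. A heat shock element (GAA, TTC and GAA spaced by 2 bases) was present in 0 of 43 and in 0.366% of all promoters. Such matches describe letters and not sites of binding. The windows printed here show the antioxidant response element core in all 8 genes that hold it and were tested in T>C reads. For each of these the match farthest upstream is shown. Also printed is the CCAAT box farthest upstream in PSMA5, called higher in all reads, and in PSMD10, called higher in T>C reads. A CCAAT box was also present in PSMB2, PSMC3, PSMC5 and PSMD8, which were called lower in T>C reads. It was not found in PSMA6, also called lower in T>C reads, or in PSMD9, which was called higher in all reads. The T>C changes of the 8 genes ran from -1.11 (PSMD9) to 0.22 (PSMG1). The letters are written 5′ to 3′ on the strand of the gene, with the match in capitals. The cores lie at chr2:231056896-231056916 (plus strand) for PSMD1, chr17:39980760-39980788 (plus) for PSMD3, chr9:120843038-120843066 (minus) for PSMD5, chr12:121888631-121888659 (plus) for PSMD9, chr17:67366724-67366752 (minus) for PSMD12, chr2:53971009-53971037 (minus) for PSME4, chr21:39183616-39183644 (minus) for PSMG1 and chr18:12658689-12658717 (plus) for PSMG2. The boxes lie at chr1:109426517-109426541 (minus) for PSMA5 and chrX:108091604-108091628 (minus) for PSMD10. In PSMD9, PSME4 and PSMD10 the match is read on the opposite strand.
PSMD1: aggaggcgacTGACTGAGCag
PSMD3: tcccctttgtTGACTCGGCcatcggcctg
PSMD5: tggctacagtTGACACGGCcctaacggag
PSMD9: cgctactcctGCCGGGTCAccacaggcgc
PSMD12: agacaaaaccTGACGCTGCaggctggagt
PSME4: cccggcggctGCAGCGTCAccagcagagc
PSMG1: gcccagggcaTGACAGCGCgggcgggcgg
PSMG2: cagtttcccgTGACCCCGCggccgctctg
PSMA5: gcgcgttggcCCAATcacctaggcg
PSMD10: aaggccggtgATTGGtgaagctcta

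In the 20S alpha ring, the gate through which substrates enter the core, 1 of 7 tested genes was called lower in T>C reads (14.3%, beside 33.0% of all genes) and 1 was called higher in all reads (14.3%, beside 5.89%). PSMA6 had 11.0, 9.57 and 5.39 T>C CPM in DMSO and 3.44, 4.41 and 4.86 in C646. Every C646 library lay below every DMSO library, although C646 replicate 3 and DMSO replicate 3 were close. The log2 fold change was -1.02 (SE 0.31, adjusted p = 0.00587, edgeR), which is 0.20 below the all-gene median. This call rested on single libraries, because the adjusted p from edgeR was 0.0727 without DMSO replicate 1 (-0.81), 0.0301 without DMSO replicate 2 (-0.95), 0.0237 without C646 replicate 1 (-0.89) and 0.0163 without C646 replicate 2 (-1.05). PSMA6 was not called in all reads (-0.60, adjusted p = 0.0214, edgeR).

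PSMA5, another subunit of the alpha ring, rose in the whole pool. Its reads stood at 40.2, 36.6 and 43.1 CPM in DMSO and at 78.8, 97.8 and 114 CPM in C646. All 3 C646 libraries exceeded the highest DMSO library by far, and all reads rose by a log2 fold change of 1.28 (SE 0.16, adjusted p = 8.60e-05, edgeR). Its T>C reads were 5.27, 5.96 and 3.37 CPM in DMSO and 4.36, 10.0 and 7.84 CPM in C646, so that the groups overlapped. The T>C change of 0.61 did not pass the test (SE 0.32, adjusted p = 0.106, edgeR), but scaled on T>C reads it was 1.45 and passed (adjusted p = 0.000572, edgeR). The T>C share was 13.1%, 16.3% and 7.81% in DMSO and 5.54%, 10.3% and 6.85% in C646, and the change in T>C odds was -0.78 (adjusted p = 0.0424, edgeR). The counted 3′ UTR of PSMA5 lies on chromosome 1 from 109399031 to 109402012 on the minus strand of GRCh38 and includes the annotated transcript end. The other 5 tested alpha genes had T>C changes between -0.78 and -0.08, of which PSMA2 (-0.78, adjusted p = 0.00830, edgeR) passed the p threshold without reaching the fold. PSMA8, a testis-type alpha subunit, had 0 reads in every library, where 3 counts would amount to 0.298 to 0.416 CPM.

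The 20S beta ring holds the catalytic sites in PSMB5 (chymotrypsin-like), PSMB6 (caspase-like) and PSMB7 (trypsin-like), and 1 of its 6 tested genes was called lower in T>C reads (16.7%, beside 33.0% of all genes). This was PSMB2, a structural beta subunit, with 15.3, 12.8 and 14.7 T>C CPM in DMSO and 9.13, 6.86 and 5.36 in C646. The groups were well apart, and the log2 fold change was -1.01 (SE 0.24, adjusted p = 0.000933, edgeR), 0.18 below the all-gene median. Its fold stood at the threshold, so that leaving out C646 replicate 2, C646 replicate 3, DMSO replicate 1 or DMSO replicate 3 moved it to -0.99, -0.84, -0.95 and -0.99, under the fold required. All reads of PSMB2 gave -0.10 (adjusted p = 0.618, edgeR), and its T>C share went from 5.87%, 6.58% and 5.78% to 3.78%, 3.09% and 2.74%.

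Among the catalytic genes, PSMB5 had 18.97, 20.7 and 19.1 T>C CPM in DMSO and 11.8, 10.5 and 11.9 in C646. Its DMSO libraries agreed closely and lay above all C646 libraries, with a log2 fold change of -0.78 (SE 0.20, adjusted p = 0.00202, edgeR) that passed the p threshold but not the fold, and that became 0.06 with T>C reads scaled on themselves. PSMB6 gave 10.9, 10.1 and 11.0 against 6.74, 9.31 and 7.54 T>C CPM (-0.44, adjusted p = 0.123, edgeR). PSMB7 gave 12.8, 13.0 and 12.8 against 6.48, 8.33 and 9.92 T>C CPM (-0.63, adjusted p = 0.0241, edgeR). Neither PSMB6 nor PSMB7 passed the threshold, although in both the C646 libraries were below all DMSO libraries. In all reads the 3 catalytic genes changed by -0.44, 0.09 and -0.29, with 0 of the 3 at an adjusted p of at most 0.01 in edgeR (adjusted p = 0.0391, 0.660 and 0.139).

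PSMB1, a non-catalytic beta subunit, was the one tested beta gene with a positive T>C change, at 63.1, 47.0 and 67.3 CPM in DMSO and 72.7, 89.7 and 90.0 in C646. The groups did not overlap, and T>C reads rose by a log2 fold change of 0.51 (SE 0.16, adjusted p = 0.00844, edgeR), short of the fold for a call. Its T>C share was 4.89%, 4.89% and 4.69% in DMSO and 4.92%, 5.95% and 6.08% in C646. Of the PSMB1 reads 17.0% mapped to more than 1 place, and the last 50 bases of its transcript have 1 further copy on another contig of GRCh38, whose part in the values was not tested. PSMB4 changed by -0.01, and PSMB3 had only 5 to 22 reads per library and was not tested. Of these reads 60.0% fell on an entry on an alternative contig, the end of the PSMB3 transcript recurs on 1 other contig, and its entry does not hold the annotated end, so no level is read from these counts.

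The immunoproteasome subunits PSMB8, PSMB9 and PSMB10 replace PSMB5, PSMB6 and PSMB7, and only the last of them could be tested in T>C reads. PSMB10 had 6.43, 12.6 and 4.71 T>C CPM in DMSO and 6.35, 5.76 and 8.43 in C646. The groups overlapped, and the change of -0.19 did not pass (SE 0.31, adjusted p = 0.610, edgeR). The reads of PSMB10 were 188, 273 and 191 CPM in DMSO and 173, 163 and 160 in C646, with no overlap but no call either (-0.39, adjusted p = 0.0649, edgeR). PSMB8 was at 0 reads in every library, and PSMB9 had 1 to 19 reads, all of them mapped to several places. Both genes lie in the major histocompatibility region, which GRCh38 holds in several versions. Each has 8 entries, 7 of them on alternative contigs, and its last 50 bases recur on 7 other contigs. Of the protein-coding genes with entries on the main chromosomes and on other contigs, 652 of 707 (92.2%) had fewer than 10 reads per library on average, compared with 43.6% of genes on the main chromosomes alone, and no level of PSMB8 or PSMB9 is therefore read from these counts. PSMB11, the thymus subunit, had 0 to 1 reads.

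The ATPase ring of the 19S cap, which unfolds the substrate, had 2 of its 5 tested genes called lower in T>C reads, PSMC3 and PSMC5 (40.0%, beside 33.0% of all genes). PSMC3 showed 10.8, 15.1 and 5.12 T>C CPM in DMSO and 5.42, 3.19 and 4.17 in C646. DMSO replicate 3 was low and fell within the range of the C646 libraries. The log2 fold change was -1.28 (SE 0.33, adjusted p = 0.00153, edgeR), 0.45 below the all-gene median, but the adjusted p from edgeR rose to 0.0146 without C646 replicate 2 (-1.11), 0.0102 without DMSO replicate 1 (-1.25) and 0.0419 without DMSO replicate 2 (-0.92). In all reads, PSMC3 stood at 189, 289 and 184 CPM in DMSO and 134, 124 and 114 in C646. These groups were apart, and PSMC3 fell by 0.83 on the log2 scale (SE 0.17, adjusted p = 0.00253, edgeR), without reaching the fold for a call. The adjusted p for all reads was 0.0167 without C646 replicate 2 (edgeR).

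PSMC5 had 5.06, 8.32 and 7.54 T>C CPM in DMSO and 3.44, 4.17 and 1.49 in C646, where replicate 3 was the lowest. The change was -1.21 (SE 0.36, adjusted p = 0.00557, edgeR), 0.38 below the all-gene median. Its call was lost without C646 replicate 3 (-0.86, adjusted p = 0.0313, edgeR), without DMSO replicate 2 (-1.07, adjusted p = 0.0410, edgeR) and without DMSO replicate 3 (-1.15, adjusted p = 0.0287, edgeR). In the whole pool, 151, 218 and 142 CPM in DMSO stood against 110, 113 and 99.7 CPM in C646, and PSMC5 fell by 0.66 (SE 0.16, adjusted p = 0.00733, edgeR). This too rested on single libraries. The adjusted p for all reads was 0.0156, 0.0284 and 0.0169 without C646 replicate 1, 2 or 3, and 0.0137 without DMSO replicate 1 (edgeR). For PSMC3 and PSMC5, then, T>C reads and all reads were lower together, and the T>C odds changed by -0.43 and -0.61 without passing the test (adjusted p = 0.162 and 0.0830, edgeR). PSMC6 was the highest of the ring at -0.16 (adjusted p = 0.622, edgeR), with 9.80, 6.79 and 8.35 T>C CPM in DMSO and 8.60, 5.76 and 8.04 in C646, where the groups overlapped. PSMC1 and PSMC2 were at -0.39 and -0.18, and 99.7% of the PSMC1 reads mapped to more than 1 place. PSMC4, an ATPase of every 19S cap, had only 3 to 14 reads per library and was not tested. Its entry holds the annotated end, whose last 50 bases have no further copy in GRCh38. What lowered its count was not tested, and the count is not read as its level.

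Of the 11 non-ATPase subunits of the cap, all could be tested and 1 was called lower in T>C reads (9.09%, beside 33.0% of all genes), PSMD8, a lid subunit. PSMD8 had 10.8, 14.7 and 11.3 T>C CPM in DMSO and 2.38, 5.64 and 4.27 in C646. All 3 C646 libraries lay well below the lowest DMSO library. The log2 fold change was -1.57 (SE 0.29, adjusted p = 4.85e-05, edgeR), 0.74 below the all-gene median, and the gene stayed called with each of the 6 libraries left out (-1.85 to -1.30). Its reads went from 384, 446 and 326 CPM to 258, 264 and 215 CPM, a fall of 0.65 on the log2 scale (SE 0.15, adjusted p = 0.00462, edgeR). Unlike the T>C call, this fall rested on single libraries. Its adjusted p was 0.0190 without C646 replicate 2, 0.0133 without C646 replicate 3 and 0.0174 without DMSO replicate 1 (edgeR). The T>C share was 2.80%, 3.30% and 3.47% in DMSO and 0.922%, 2.13% and 1.98% in C646. The 3′ UTR of PSMD8 was counted on chromosome 19 from 38383391 to 38383824, plus strand.

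At the upper end of the lid and base subunits stood PSMD3, whose promoter window is printed above. Its T>C reads were 4.53, 11.8 and 6.73 CPM in DMSO and 5.95, 5.15 and 12.5 in C646, and both groups covered the same range. The change was 0.07 in T>C reads (SE 0.33, adjusted p = 0.874, edgeR) and 0.29 in all reads (adjusted p = 0.221, edgeR). The other 9 subunits had T>C changes between -0.81 (PSMD1) and -0.03 (PSMD7). In T>C odds, PSMD4, PSMD8 and PSMD11 passed an adjusted p of 0.01 in edgeR without the fold, at -0.68, -0.93 and -0.73. PSMD11, singled out after its values were seen, had 190, 146 and 188 CPM of all reads in DMSO and 224, 231 and 274 in C646, with T>C shares of 9.86%, 9.41% and 9.44% against 5.80%, 5.00% and 7.22%. PSMD14, the deubiquitinating enzyme of the lid, was at -0.58 in T>C reads (adjusted p = 0.0831, edgeR) and 0.18 in all reads.

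Among regulators of the core, 0 of 3 tested genes were called in any measure (edgeR), beside 33.0% of all genes called lower in T>C reads, and 2 of the 3 had an unadjusted p below 0.05 in T>C reads, beside 60.8%. PSME3, the nuclear activator subunit, had 32.1, 40.2 and 40.8 T>C CPM in DMSO and 19.8, 28.2 and 32.0 in C646, with the highest C646 library just under the lowest DMSO library. The change was -0.49 (SE 0.19, adjusted p = 0.0266, edgeR). PSMF1, an inhibitor of the 20S core, had 11.3, 12.3 and 6.73 against 5.29, 7.35 and 3.67 T>C CPM with overlapping groups. Its change of -0.91 (SE 0.29, adjusted p = 0.0104, edgeR) lay at the limit of the test, and it was called without C646 replicate 2 (-1.19, adjusted p = 0.00526, edgeR) and without DMSO replicate 3 (-1.12, adjusted p = 0.00516, edgeR). PSME1 and PSME2, subunits of a cytosolic activator, had 0 to 5 reads in each library and were not tested. As for PSMC4, their entries hold the annotated ends without further copies, and the counts are not read as levels.

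The 8 assembly factors were all tested and spread widest, from the lowest to the highest T>C change of any member. In T>C reads 2 of the 8 were called lower (25%, beside 33.0% of all genes) and 1 was called higher (12.5%, beside 2.97%). PSMG3 and PSMG4, which form a chaperone of the alpha ring, were the genes called lower. PSMG3 had 17.8, 24.7 and 20.1 T>C CPM in DMSO and 5.03, 4.66 and 6.55 in C646. The lowest DMSO library was well above the highest C646 library, and the log2 fold change was -1.93 (SE 0.24, adjusted p = 8.82e-08, edgeR), 1.10 below the all-gene median. With T>C reads scaled on themselves it was -1.10 and called (adjusted p = 0.000535, edgeR). All reads of PSMG3 were 136, 150 and 142 CPM in DMSO and 106, 131 and 138 in C646, which overlapped (-0.19, adjusted p = 0.313, edgeR). T>C reads thus made up 13.1%, 16.4% and 14.2% of its reads in DMSO but 4.74%, 3.56% and 4.73% in C646, and the T>C odds fell by 1.90 on the log2 scale (SE 0.23, adjusted p = 4.11e-07, edgeR). The PSMG3 3′ UTR lies on chromosome 7 from 1567334 to 1567697, minus strand.

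PSMG4 had 4.43, 8.73 and 7.41 T>C CPM in DMSO and 1.98, 1.96 and 2.48 in C646. The C646 libraries were close to each other and below every DMSO library, and the change was -1.65 (SE 0.36, adjusted p = 0.000351, edgeR), 0.82 below the all-gene median. Its whole pool gave 86.5, 138 and 99.0 CPM against 79.7, 87.4 and 83.2 CPM (-0.37, adjusted p = 0.101, edgeR), with overlap. The T>C share went from 5.12%, 6.33% and 7.48% to 2.49%, 2.24% and 2.98%, and the odds fell by 1.33 (SE 0.29, adjusted p = 0.000594, edgeR). PSMG4 was counted on chromosome 6 from 3267713 to 3268066, plus strand. Both PSMG3 and PSMG4 stayed called in T>C reads with each of the 6 libraries left out, at -2.10 to -1.80 and at -1.90 to -1.45.

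The other alpha ring chaperone, made of PSMG1 and PSMG2, had no gene called with the all-read scaling. PSMG1 showed 22.2, 26.5 and 26.8 T>C CPM in DMSO and 24.7, 28.9 and 33.9 in C646 (0.22, adjusted p = 0.309, edgeR), and PSMG2 showed 17.6, 12.9 and 14.3 against 14.3, 15.1 and 17.2 (0.05, adjusted p = 0.845, edgeR). Both pairs of groups overlapped. Relative to the all-gene median, PSMG1 and PSMG2 were 1.05 and 0.88 higher. The difference between the chaperone pairs was not tested. PSMG1, PSMG2 and the ring chaperone genes PSMG3 and PSMG4 had T>C shares of 36.3%, 14.7%, 14.6% and 6.31% on average in DMSO and of 31.5%, 11.8%, 4.35% and 2.57% in C646.

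**Figure D4:**
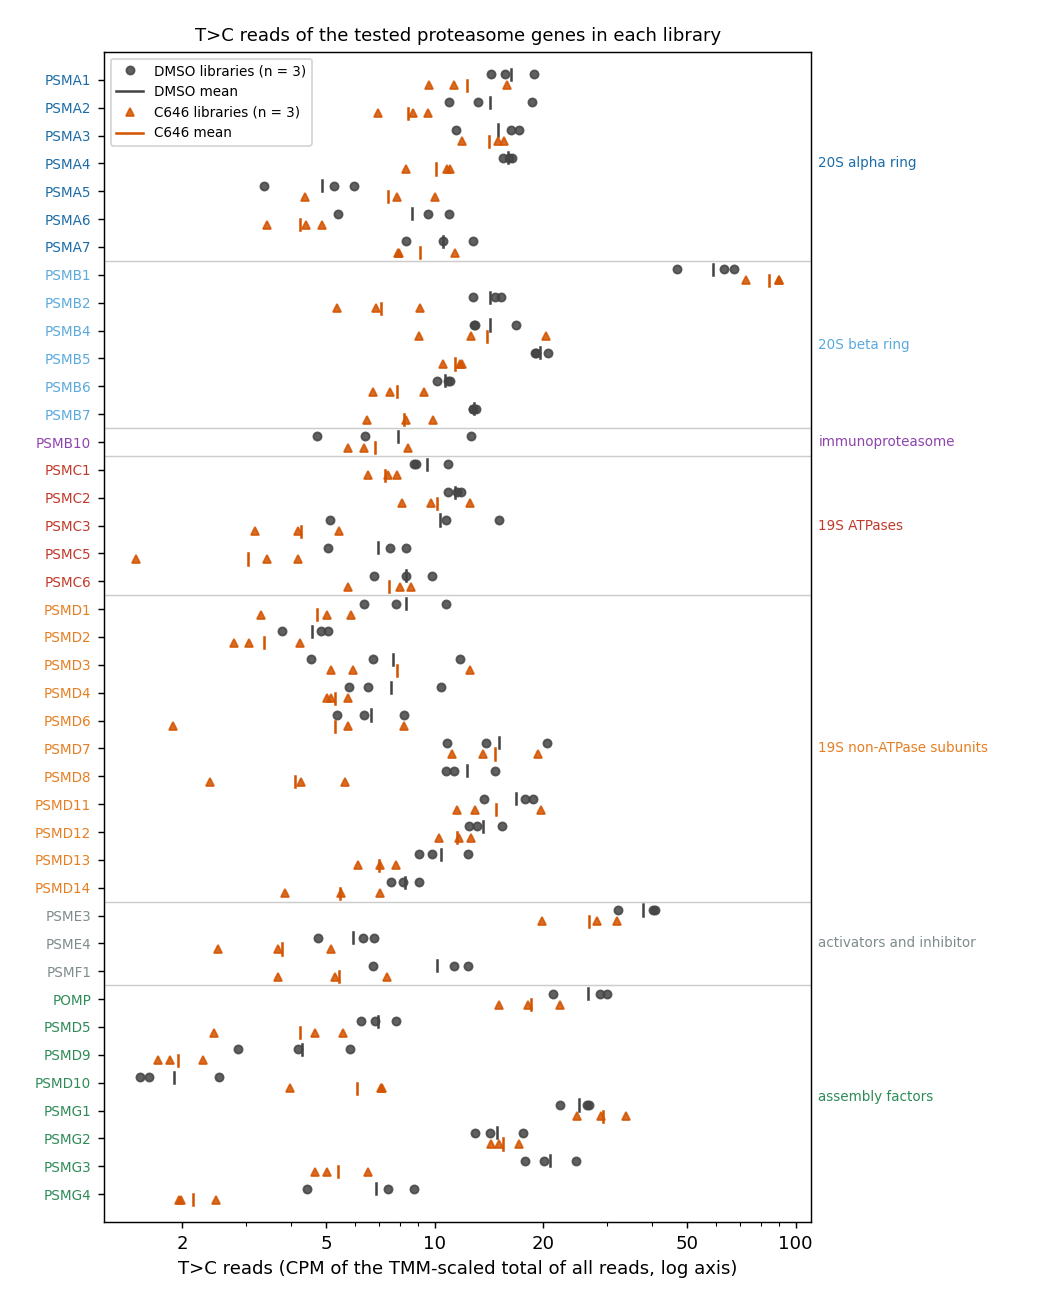
T>C reads of each tested proteasome gene in every library (CPM of the scaled total of all reads, log axis), DMSO as circles and C646 as triangles with the group means as vertical bars (n = 3 each), ordered by role. The C646 libraries of PSMG3 (4.66 to 6.55 CPM) lie far left of its DMSO libraries (17.8 to 24.7 CPM), those of PSMD10 lie to the right, and C646 values would move up relative to DMSO if T>C reads were scaled on themselves.

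PSMD9, PSMD10 and PSMD5 are chaperones of the ATPase ring. PSMD10 (gankyrin) had 2.53, 1.52 and 1.62 T>C CPM in DMSO and 3.97, 7.11 and 7.14 in C646. All C646 libraries were above all DMSO libraries, and T>C reads rose by a log2 fold change of 1.66 (SE 0.38, adjusted p = 0.000591, edgeR). This rests on 11 to 72 T>C reads per library, and the gene stayed called with each of the 6 libraries left out (1.53 to 1.95). All reads of PSMD10 were 20.4, 18.4 and 17.5 CPM in DMSO and 30.2, 31.6 and 38.0 in C646, again without overlap (0.82, SE 0.17, adjusted p = 0.00296, edgeR). The adjusted p for all reads was 0.0118 without C646 replicate 2 or C646 replicate 3 (edgeR). Scaled by the total of all filtered reads, PSMD10 was called higher in all reads (1.03, adjusted p = 0.000744, edgeR). Its T>C share was 12.4%, 8.27% and 9.23% in DMSO and 13.2%, 22.5% and 18.8% in C646, which made it the member with the largest change in T>C odds upward (0.97), although this missed the threshold (SE 0.40, adjusted p = 0.0396, edgeR). PSMD10 was counted on chromosome X from 108084205 to 108085119, minus strand.

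For PSMD9 the whole pool rose while the T>C odds fell. Its reads were 38.6, 39.5 and 55.3 CPM in DMSO and 84.2, 82.6 and 111 CPM in C646. Every C646 library exceeded every DMSO library, and all reads rose by a log2 fold change of 1.06 (SE 0.17, adjusted p = 0.000632, edgeR). Without C646 replicate 3, DMSO replicate 1 or DMSO replicate 2 the fold was 0.91, 0.97 and 0.98, under the fold required for a call. The T>C reads were 2.85, 5.82 and 4.17 CPM in DMSO and 1.85, 1.72 and 2.28 CPM in C646, lower in each C646 library but not called (-1.11, SE 0.42, adjusted p = 0.0258, edgeR). The T>C share was therefore 7.38%, 14.7% and 7.54% in DMSO and 2.20%, 2.08% and 2.06% in C646. The C646 libraries were nearly equal and far below DMSO, and the T>C odds fell by 2.28 on the log2 scale (SE 0.35, adjusted p = 1.30e-05, edgeR), the lowest value of any member. The counted 3′ UTR of PSMD9, chromosome 12 from 121916312 to 121917865 on the plus strand, ends 432 bases before the annotated transcript end. The entries of PSMA4, PSMC1, PSMC6, PSMF1 and PSMG1 also stop short of the annotated end, by up to 4464 bases for PSMF1, and the part of this in the values of these 6 genes was not tested.

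PSMD5 gave 6.85, 6.24 and 7.81 T>C CPM in DMSO and 5.55, 2.45 and 4.66 in C646, apart but not called (-0.72, adjusted p = 0.0565, edgeR). POMP, which guides the maturation of the beta ring, had 28.8, 29.9 and 21.3 T>C CPM in DMSO and 15.1, 18.1 and 22.2 in C646. Its groups overlapped through C646 replicate 3 and DMSO replicate 3, and the change of -0.52 did not pass (SE 0.20, adjusted p = 0.0262, edgeR). All reads of POMP, at 620, 694 and 589 CPM against 565, 544 and 604, changed by -0.15 (adjusted p = 0.386, edgeR).

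A list of 25 genes that bind the proteasome, deliver substrates to it or drive and process its transcription factors was examined beside the subunits. In T>C reads, 4 of 23 tested were called lower (17.4%, beside 33.0% of all genes) and 1 higher (4.35%, beside 2.97%). With T>C reads scaled on themselves, 3 of the 23 were called lower and 3 of the 23 higher, beside 7.80% and 9.14% of all genes. In all reads 1 of 24 was called lower (4.17%, beside 1.88%) and 2 higher (8.33%, beside 5.89%). In T>C odds 8 of 23 were called lower (34.8%, beside 38.3%), namely ADRM1, NFE2L1, UBQLN4, USP14, NGLY1, RAD23B, ZFAND5 and UFD1. The median T>C change of the list was -0.50, which became 0.34 with T>C reads scaled on themselves. ADRM1, a ubiquitin receptor of the cap, had 12.2, 9.70 and 13.1 T>C CPM in DMSO and 2.65, 4.17 and 2.58 in C646. Its groups were far apart (-1.90, SE 0.29, adjusted p = 3.70e-06, edgeR). All reads of ADRM1 were also lower in every C646 library, without reaching the fold for a call (-0.86, adjusted p = 0.00203, edgeR). UCHL5, the deubiquitinating enzyme that ADRM1 binds, had 9.17, 8.73 and 6.60 against 3.17, 3.80 and 4.17 T>C CPM (-1.13, SE 0.30, adjusted p = 0.00219, edgeR), a call that was lost with T>C reads scaled on themselves (-0.29, adjusted p = 0.483, edgeR). SEM1, a small lid subunit without a PSM symbol, had overlapping groups, with 9.49, 9.43 and 11.2 against 9.52, 8.58 and 10.4 T>C CPM (-0.07, adjusted p = 0.807, edgeR).

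NFE2L1, the transcription factor that raises proteasome genes when proteolysis is impaired, had 10.3, 7.49 and 7.14 T>C CPM in DMSO and 2.78, 1.59 and 1.49 in C646. The groups were well separated (-2.11, SE 0.35, adjusted p = 1.11e-05, edgeR), whereas all reads, although also lower in every C646 library, were not called, at 46.3, 44.4 and 43.6 against 39.5, 35.3 and 40.3 CPM (-0.22, adjusted p = 0.265, edgeR). Its relative NFE2L2, the regulator of antioxidant genes, had 17.2, 7.62 and 12.4 against 17.5, 15.2 and 19.8 T>C CPM (0.49, adjusted p = 0.0819, edgeR), which became a call at 1.33 with T>C reads scaled on themselves (adjusted p = 4.81e-05, edgeR). In all reads NFE2L2 rose from 34.0, 17.6 and 26.8 to 41.8, 43.9 and 60.4 CPM (0.89, adjusted p = 0.00773, edgeR), under the fold for a call.

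ZFAND2A, a stress-induced protein that binds the 19S cap, was the one partner called higher in T>C reads. It had 2.21, 1.66 and 3.23 T>C CPM in DMSO and 21.8, 15.8 and 14.3 in C646, and the groups were far apart (2.86, SE 0.29, adjusted p = 2.85e-09, edgeR). In all reads ZFAND2A went from 12.0, 11.1 and 15.3 to 78.4, 68.7 and 55.3 CPM (2.39, adjusted p = 9.21e-07, edgeR). The shuttle factor UBQLN1, which carries ubiquitinated proteins to the cap, rose in all reads from 131, 170 and 167 to 297, 375 and 382 CPM (1.17, adjusted p = 9.87e-05, edgeR), and its T>C reads did not pass (0.54, adjusted p = 0.0241, edgeR) except when scaled on themselves (1.38, adjusted p = 1.78e-06, edgeR). Another ubiquilin, UBQLN4, had 2.63, 2.63 and 1.48 T>C CPM in DMSO and 0, 0.123 and 0.198 in C646, where each library held fewer than 3 T>C reads. Against a floor of 3 counts per library, the mean of the C646 libraries was at least 6.36-fold below the DMSO mean in T>C reads. It was also the partner called lower in all reads, with 47.0, 52.3 and 35.5 CPM in DMSO and 27.5, 20.8 and 15.0 in C646 (-1.10, adjusted p = 0.00207, edgeR), and 87.4% of its reads mapped to more than 1 place.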

How the data were processed

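SLAM-seq libraries of MOLM-13 cells (QuantSeq 3′ FWD) were processed by the authors with SLAM-Dunk v0.4.1 on GRCh38, without pooling, and 1 table of 58136 3′ UTR entries named by Entrez identifier was deposited per library. The deposited tables hold raw counts of reads, T>C reads, conversions and multimapped reads, a signal (coverage on T positions), CPM per filtered reads, a conversion rate as a fraction, and entry lengths and T contents. CPM and rates were recomputed here. Of entries with a single T>C read, 46.0% to 49.1% in DMSO and 59.7% to 63.2% in C646 had a single conversion, so T>C reads with 1 conversion are included, whereas the study's methods test reads with at least 2, which the tables do not separate.

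Counts were summed per gene. Symbols matched 25310 of 25420 identifiers. Differences were tested with edgeR 4.0.16 in R 4.3.3 (filterByExpr, TMM on all reads, glmQLFTest, Benjamini-Hochberg), and T>C odds by a T>C by treatment term with a library factor. The standard error is the absolute log2 fold change over the square root of F. The scripts were tested on simulated data. Libraries of a group had a chi-square per gene of 7.87 to 27.7 between their reads, where counting noise gives about 1, and none was left out. Counting error on a gene is set by its T>C reads.

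Named in full are members called in T>C reads or all reads, the highest and lowest of each role, the catalytic pairs, POMP, and of the 25 partners those called in either plus NFE2L1, NFE2L2, ADRM1 and SEM1. Others were picked after their values were seen. Members, lists and tests were chosen with earlier results of these data known. Alternatives were DESeq2 1.42.0, other scalings and filters, single 3′ UTR entries, a replicate block and each library left out. Transcript ends came from GENCODE release 44 and promoters from RefSeq.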

Additional observations from a re-analysis of the deposited data

How the results depend on the processing

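Of 663 alternative values for named genes, 618 stayed on the same side of the threshold, 33 lost a call, 12 gained one and 0 called values reversed, while 26 values without a call changed sign. Leaving out a library accounted for 24 of the 45 changed calls and 7 of the sign changes, and scaling for 20 and 19. With TMM on T>C reads, 1 member was called lower, 4 were called higher and the member median was 0.34 (all genes 0.01), and with DESeq2 size factors from T>C reads these were 1, 4 and 0.31 (all genes -0.03). With the total of all filtered reads, 4 members were called lower in T>C reads, with medians of -0.28 (all genes -0.62) in T>C reads and 0.19 (all genes 0.20) in all reads. With this scaling 3 members were called higher in all reads, as PSMD10 gained a call (1.03, adjusted p = 0.000744, edgeR). At a minimum of 50 T>C reads, 0 members were called higher in T>C reads (PSMD10 was not tested) and 1 was called lower in T>C odds, and the median of all genes was -0.73. Without a filter, the all-read median of all genes was 0.03. Leaving out 1 library gave 4 to 6 members lower in T>C reads (4 without DMSO replicate 1 or DMSO replicate 2), 3 to 5 lower in T>C odds (5 without C646 replicate 1 or C646 replicate 3) and 1 to 2 higher in all reads (1 without C646 replicate 3, DMSO replicate 1 or DMSO replicate 2). The member median then ran from -0.57 to -0.40 in T>C reads and from -0.085 to 0.024 in all reads. Apart from fewer genes tested or fewer libraries, the cause of these shifts was not tested.

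Deviations of same-numbered libraries correlated across genes at 0.030, 0.044 and 0.065 in T>C reads and at -0.0014, 0.14 and 0.23 in all reads. Not every pair exceeded 0.1, so the numbers were not taken as pairs. Each library correlated best with its own number in T>C reads but not in all reads, a hint from the data and not from the design. With the replicate block, 6 members were called lower in T>C reads (PSMA6 at -0.98 was lost), 1 higher, 2 higher in all reads and 3 lower in T>C odds.

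Depth limits the small genes most: PSMD10, PSMD9 and PSMG4 rest on as few as 11 to 15 T>C reads in a library, and 8 members could not be tested in T>C reads. The members' share of all T>C reads, C646 minus DMSO, was 0.0534 percentage points and -0.00785 without PSMB1, an alternative added after seeing the data.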
